A study of Homo sapiens with 33 samples.

Results

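The ISG15 conjugation pathway was described as 6 genes, ISG15, UBA7, UBE2L6, HERC5, HERC6 and USP18, found in the count table by gene identifier. All 6 were present among its 85160 genes, and all 6 were among the 22971 genes with enough counts to be tested. The cells were NB4, an established human cell line derived from acute promyelocytic leukaemia (APL), in which the PML-RARA fusion blocks myeloid cells at the promyelocyte step. They were given 1 µM all-trans retinoic acid (ATRA), a vitamin A acid that drives APL cells to mature and is a standard drug in this disease, or DMSO as its solvent control, with harvests at 4, 12, 24, 72 and 120 h. Per the labels, medium holding new drug was added to the cultures on day 3. A further group was taken without treatment at 0 h. This gave 11 groups of 3 libraries (numbered 2, 4 and 5, biological triplicates of 1 cell line per the labels) and 33 libraries in total.

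ISG15 is a small protein related to ubiquitin that becomes joined to other proteins, mostly after interferon. UBA7 (also called UBE1L) is the E1 enzyme that activates it, UBE2L6 is the E2 enzyme that carries it, and HERC5 is the main E3 ligase that attaches it in human cells. HERC6 is the close relative of HERC5 that does this work in the mouse. USP18 (UBP43) removes ISG15 from proteins and also holds back signalling at the type I interferon receptor. UBA7 has been known as a retinoid target in promyelocytic leukaemia cells, which puts a retinoid link at the first enzyme of an interferon-induced pathway.

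The gene models of the count table (GRCh38) place ISG15 at chr1:998965-1015902 on the plus strand, UBA7 at chr3:49805094-49814130 on the minus strand and UBE2L6 at chr11:57546032-57568287 on the minus strand. HERC6 (chr4:88378739-88447973) and HERC5 (chr4:88457117-88506908) are neighbours on the plus strand, 9144 bases apart. USP18 spans chr22:18149899-18864412 on the plus strand. Values below count fragments over all exons of a gene, UTRs included. No member shared exon bases with another gene on its own strand, and counting kept the strands apart. The ISG15 model of 16262 exon bases runs far beyond the short ISG15 transcript, so CPM (counts scaled by library size) is compared within a gene and never between genes.

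The promoter stretches are shown because they bear on both possible inputs, interferon and retinoid. RefSeq promoter entries (GRCh38.p14) matched 4 of the 6 members, and UBA7 and USP18 had none. The last 160 bases before each annotated start are printed in the gene's own direction. Capitals mark matches on either strand to the interferon-stimulated response element, searched as GAAA, any 2 bases and GAAA again.
ISG15, chr1:1013337-1013496, plus strand: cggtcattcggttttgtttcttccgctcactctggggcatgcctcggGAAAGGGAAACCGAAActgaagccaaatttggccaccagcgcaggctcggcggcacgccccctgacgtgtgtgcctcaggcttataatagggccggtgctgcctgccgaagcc
HERC5, chr4:88456959-88457118, plus strand: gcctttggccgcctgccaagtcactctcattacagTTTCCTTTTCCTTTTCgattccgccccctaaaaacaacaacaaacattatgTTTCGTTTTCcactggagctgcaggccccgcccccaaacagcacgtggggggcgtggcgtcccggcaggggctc
HERC6, chr4:88378692-88378851, plus strand: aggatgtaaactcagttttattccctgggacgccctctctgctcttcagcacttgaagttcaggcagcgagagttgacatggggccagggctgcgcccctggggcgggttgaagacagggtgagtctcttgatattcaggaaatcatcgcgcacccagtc
UBE2L6, chr11:57567936-57568095, minus strand: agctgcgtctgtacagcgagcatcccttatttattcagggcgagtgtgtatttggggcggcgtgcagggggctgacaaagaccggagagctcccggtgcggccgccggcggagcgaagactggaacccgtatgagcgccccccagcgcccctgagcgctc
UBE2L6, other start, chr11:57567673-57567832, minus strand: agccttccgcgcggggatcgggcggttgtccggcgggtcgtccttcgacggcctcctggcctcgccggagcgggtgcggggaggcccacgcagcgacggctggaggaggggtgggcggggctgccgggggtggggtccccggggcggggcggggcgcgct

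ISG15 held 2 overlapping matches, 113 and 107 bases before its start. HERC5 held 3 on the opposite strand, at 125, 119 and 74 bases before its start, the first 2 of them overlapping. Over the 250 bases before the start, HERC6 and both UBE2L6 windows held none, and 3.02% of 34943 RefSeq windows of that length held at least 1. The interferon gamma element TTCNNNGAA was absent from every member window searched and present in 6.56% of all windows. The retinoid element was searched as AGGTCA, or in its variant AGTTCA, and with a leading G either as GGGTCA or as the form GGTTCA, on both strands with overlaps allowed. HERC6 held 1 such element and the other windows none, against 33.8% of all windows with at least 1. Direct repeats of this element spaced by 5 or by 2 bases were in no member window searched (0.0744% and 0.0286% of all windows). UBA7, the known retinoid target, and USP18 had no window and were not searched. These are matches of letters in short windows and say nothing of binding.

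All 6 members ended far higher in ATRA cells than in DMSO cells, but they did not leave together. Relative to DMSO cells, the activating and carrying enzymes UBA7 and UBE2L6 rose within the first day. ISG15 and HERC6 rose modestly over DMSO by 12 h. HERC5 fell below DMSO at 12 and 24 h, and USP18 stayed near its DMSO level until 24 h. Between 24 and 72 h every member climbed, and by 120 h log2 fold changes lay between 4.05 (HERC5) and 6.87 (UBE2L6). The number of members called (edgeR's quasi-likelihood test, adjusted by Benjamini-Hochberg over all tested genes, adjusted p under 0.05) was 3 higher and 0 lower at 4 h, where 24.7% of tested genes were called. It was 4 higher and 1 lower at 12 h (38.7%), 5 higher and 1 lower at 24 h (33.2%), and 6 higher at both 72 h (64.7% of tested genes called, 32.1% higher) and 120 h (70.6%, 34.9% higher). Without DMSO library 5 of 4 h, UBA7 was the 1 member still called at that time. With so many genes called at 72 and 120 h, being called says little there. The median change of the members was 0.21, 0.80, 1.07, 4.38 and 5.74 on the log2 scale at the 5 times, against medians of 0.0047, 0.03, 0.02, -0.02 and -0.03 over all tested genes. A called log2 rise of 5 or more was seen for 2.48% of tested genes at 72 h and 3.16% at 120 h, and for ISG15 and USP18 at 72 h and 4 members at 120 h. In these bulk libraries, more cells that express a gene and more RNA per cell cannot be told apart.

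**Figure D1:**
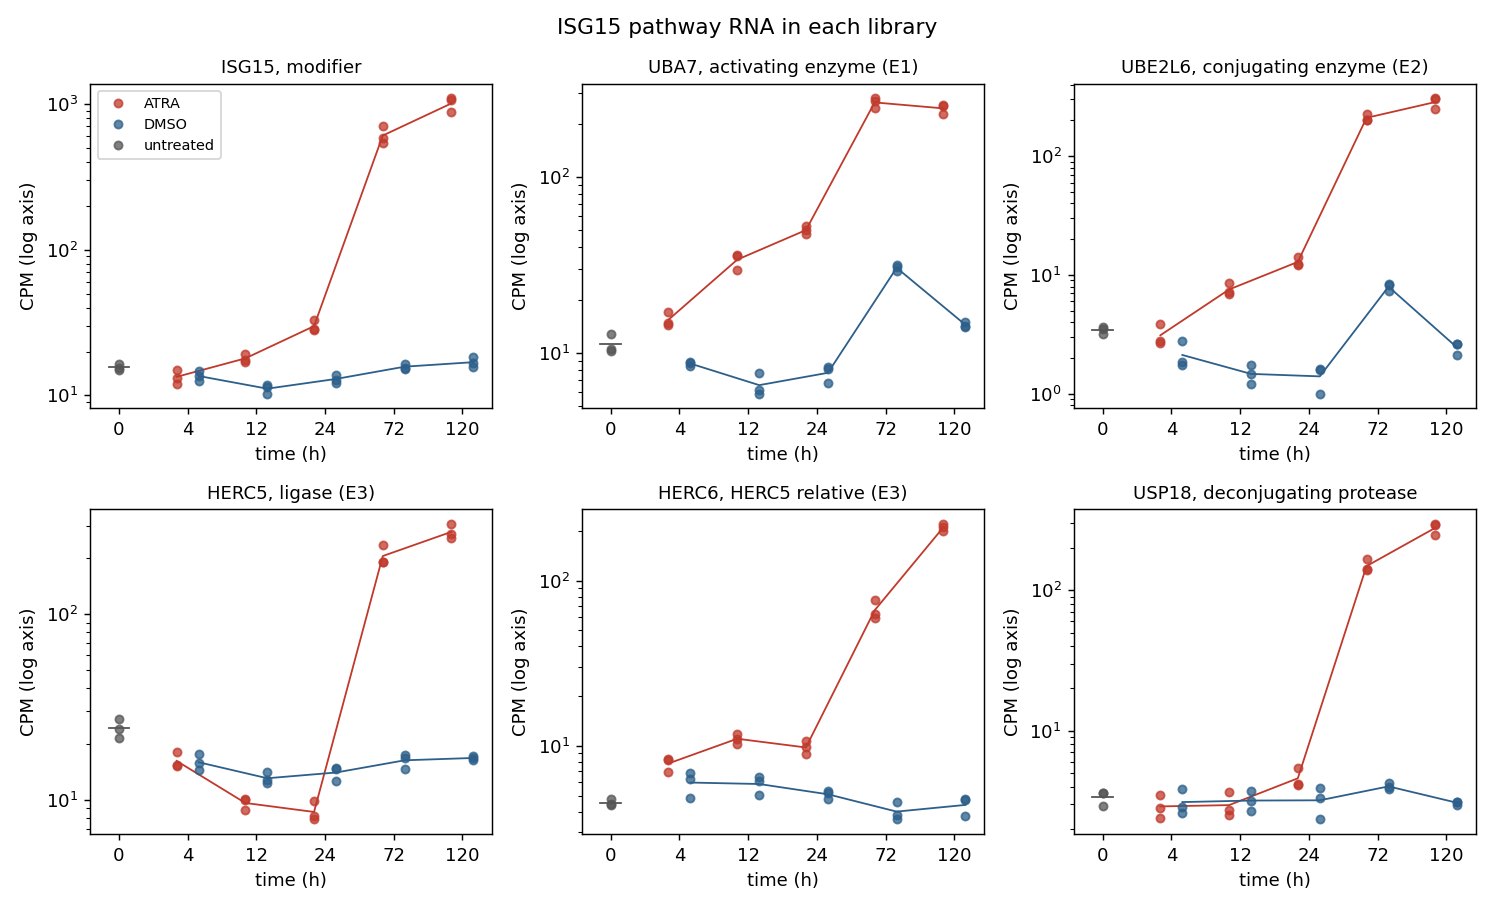
CPM of the 6 members on a log axis against time (categories, not to scale), with 1 point per library, ATRA in red, DMSO in blue, untreated in grey and lines through group means. UBA7 and UBE2L6 separate from DMSO early and have a raised DMSO level at 72 h, while ISG15, HERC5 and USP18 stay at or below 32.8 CPM until 24 h and hold at least 138.6 CPM in every ATRA library of 72 and 120 h.

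ISG15, the modifier itself, had no called change at 4 h and rose from 12 h on. ISG15 measured 12.0, 13.1 and 15.0 CPM in ATRA libraries at 4 h, against 12.5, 13.6 and 14.7 CPM in DMSO libraries. At 12 h the values were 17.6, 19.3 and 16.9 CPM with ATRA and 10.3, 11.8 and 11.3 CPM with DMSO. By 24 h ATRA libraries held 28.1, 28.7 and 32.8 CPM and DMSO libraries 12.2, 13.9 and 12.8 CPM. The 4 h groups overlapped and the later ones did not, with log2 fold changes of -0.02 ± 0.11 (SE, adjusted p = 0.906), 0.69 ± 0.10 (adjusted p = 8.64e-07) and 1.2 ± 0.10 (adjusted p = 7.44e-13). ISG15 then stood at 536, 579.7 and 702 CPM in ATRA libraries at 72 h, against 15.2, 16.5 and 15.5 CPM in DMSO libraries. The 120 h values were 1061, 1090 and 873 CPM with ATRA and 16.8, 18.2 and 15.7 CPM with DMSO. Every late ATRA library was far above every DMSO library, and the log2 fold changes of 5.27 ± 0.10 and 5.90 ± 0.11 correspond to 38.5-fold and 59.7-fold (adjusted p = 9.44e-34 and 2.86e-35). Untreated cells held 15.0, 15.4 and 16.5 CPM, and DMSO cells of 12 h were called lower than these (log2 -0.49 ± 0.11 SE).

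UBA7, the E1 enzyme, was the earliest member and the one with the smallest p at 4, 12 and 24 h. UBA7 measured 14.8, 14.4 and 17.1 CPM in ATRA libraries at 4 h and 8.74, 8.39 and 8.91 CPM in DMSO libraries. At 12 h ATRA libraries held 29.7, 35.8 and 36.2 CPM, against 6.12, 7.66 and 5.84 CPM with DMSO. The 24 h values were 49.9, 52.7 and 47.3 CPM with ATRA and 6.70, 8.33 and 8.04 CPM with DMSO. No ATRA library overlapped a DMSO library at any of these times, and the log2 fold changes were 0.83 ± 0.10, 2.37 ± 0.10 and 2.68 ± 0.10 (SE; adjusted p = 2.21e-08, 3.7e-22 and 3.04e-24). Later, UBA7 reached 248, 270.9 and 281 CPM in ATRA libraries at 72 h, against 29.1, 30.9 and 31.5 CPM in DMSO libraries. It held 254, 257 and 229.8 CPM with ATRA at 120 h and 15.0, 14.04 and 14.3 CPM with DMSO. The ATRA groups of 72 and 120 h overlapped, and its DMSO level at 72 h was about as high as its ATRA level at 12 h. The log2 fold changes were 3.13 ± 0.09 and 4.10 ± 0.09 (adjusted p = 8.49e-29 and 5.36e-32). Untreated cells held 10.2, 10.5 and 12.8 CPM.

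UBE2L6, the E2 enzyme, rose clearly from 12 h on and ended with the largest fold change of the pathway. UBE2L6 measured 2.78, 2.66 and 3.90 CPM in ATRA libraries at 4 h and 1.84, 2.78 and 1.75 CPM in DMSO libraries. These groups overlapped, since DMSO library 4 was as high as ATRA library 2, and the log2 fold change was 0.53 ± 0.18 (SE, adjusted p = 0.0252). This call rested on single libraries: without DMSO library 5 the adjusted p was 0.16, without DMSO library 2 it was 0.106, and without ATRA library 5 it was 0.208. By 12 h the values were 6.93, 8.56 and 7.19 CPM with ATRA and 1.46, 1.74 and 1.22 CPM with DMSO. At 24 h ATRA libraries held 12.1, 14.05 and 12.5 CPM, against 1.61, 1.00 and 1.60 CPM with DMSO. The groups no longer touched, with log2 fold changes of 2.34 ± 0.16 and 3.22 ± 0.16 (adjusted p = 2.74e-15 and 6.24e-20). UBE2L6 stood at 202, 203 and 225 CPM in ATRA libraries at 72 h, against 8.35, 7.37 and 8.23 CPM in DMSO libraries. It reached 306, 301 and 249 CPM with ATRA at 120 h, against 2.60, 2.63 and 2.11 CPM with DMSO. The log2 fold changes were 4.72 ± 0.11 and 6.87 ± 0.13, or 26.3-fold and 117-fold (adjusted p = 7.57e-31 and 2.77e-34). Untreated cells held 3.66, 3.50 and 3.20 CPM.

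HERC5, the human ligase, was the one member that fell first. HERC5 measured 15.4, 18.1 and 15.1 CPM in ATRA libraries at 4 h and 15.7, 17.6 and 14.5 CPM in DMSO libraries, which overlapped (log2 fold change 0.03 ± 0.10, adjusted p = 0.889). At 12 h ATRA libraries held 9.92, 10.2 and 8.77 CPM, against 14.2, 12.8 and 12.3 CPM with DMSO. The 24 h values were 7.83, 8.14 and 9.82 CPM with ATRA and 14.7, 14.8 and 12.6 CPM with DMSO. Every ATRA library was below every DMSO library at both times, and the log2 fold changes were -0.44 ± 0.11 and -0.70 ± 0.11 (SE; adjusted p = 0.00129 and 3.87e-06). HERC5 then stood at 192, 190.5 and 235 CPM in ATRA libraries at 72 h, against 16.8, 14.7 and 17.5 CPM in DMSO libraries. It held 269, 306 and 259 CPM with ATRA at 120 h, against 17.2, 16.4 and 16.8 CPM with DMSO. The direction had turned, with log2 fold changes of 3.66 ± 0.10 and 4.05 ± 0.10 (adjusted p = 8.4e-29 and 2.03e-30). Untreated cells, at 21.5, 27.3 and 24.2 CPM, were above every DMSO library and above every ATRA library of the first day.

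HERC6, the relative next door, moved upward at the times when HERC5 fell. HERC6 measured 8.38, 8.17 and 6.92 CPM in ATRA libraries at 4 h and 6.86, 6.30 and 4.82 CPM in DMSO libraries. These did not overlap, though by a narrow gap, and the log2 fold change was 0.39 ± 0.12 (SE, adjusted p = 0.0151). Without DMSO library 5 it was 0.26 with an adjusted p of 0.165, and the adjusted p was 0.0685 without ATRA library 2 and 0.0592 without ATRA library 4. At 12 h the values were 11.01, 10.3 and 11.8 CPM with ATRA and 6.52, 6.10 and 5.00 CPM with DMSO. By 24 h ATRA libraries held 8.86, 9.78 and 10.7 CPM and DMSO libraries 5.14, 5.34 and 4.78 CPM. The change stood still between these times, at log2 0.91 ± 0.12 and 0.94 ± 0.12 (adjusted p = 3.84e-08 and 5.88e-08). HERC6 reached 62.8, 59.3 and 76.3 CPM in ATRA libraries at 72 h, against 3.83, 4.58 and 3.58 CPM in DMSO libraries. It then held 219.8, 211 and 200.3 CPM with ATRA at 120 h, against 4.75, 3.74 and 4.67 CPM with DMSO. HERC6 was still climbing at the end, with log2 fold changes of 4.05 ± 0.12 and 5.58 ± 0.12 (adjusted p = 3.59e-28 and 4.46e-33). Untreated cells held 4.39, 4.46 and 4.75 CPM.

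USP18, the protease that removes ISG15, responded last. USP18 measured 2.82, 2.39 and 3.46 CPM in ATRA libraries at 4 h and 2.62, 3.85 and 2.85 CPM in DMSO libraries. At 12 h it held 2.49, 3.63 and 2.73 CPM with ATRA and 3.16, 3.71 and 2.67 CPM with DMSO. Both pairs of groups overlapped, and the log2 fold changes of -0.13 ± 0.18 and -0.10 ± 0.18 did not pass (SE; adjusted p = 0.679 and 0.697). By 24 h the values were 4.09, 4.18 and 5.47 CPM with ATRA and 3.32, 2.33 and 3.93 CPM with DMSO. The groups were apart by a narrow gap, and the log2 fold change was 0.53 ± 0.17 (adjusted p = 0.0135). That call was lost without ATRA library 5 (adjusted p = 0.16) or without DMSO library 4 (adjusted p = 0.21). USP18 stood at 140.7, 139 and 167 CPM in ATRA libraries at 72 h, against 3.97, 4.25 and 3.82 CPM in DMSO libraries. It reached 296, 292 and 248 CPM with ATRA at 120 h, against 3.10, 3.12 and 2.98 CPM with DMSO. The late groups were far apart, with log2 fold changes of 5.21 ± 0.14 and 6.50 ± 0.14, or 37-fold and 90.8-fold (adjusted p = 7.39e-30 and 1.17e-32). Untreated cells held 2.93, 3.61 and 3.61 CPM. USP41, a near copy of USP18 on the same chromosome, averaged at most 0.93 CPM in any group. How fragments that match both copies were assigned is not given in the sources used here, and their number was not measured.

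The order of the 11 group means differed between members. ATRA at 120 h was highest for 5 of them and ATRA at 72 h for UBA7. For HERC5 the untreated cells came next after the late ATRA groups, and ATRA at 24 h was the lowest of all. UBE2L6 had DMSO at 72 h next after the ATRA groups of 120, 72 and 24 h, overlapping ATRA at 12 h just below it. Neighbours in the order overlapped in 4 of 10 cases for UBA7 and UBE2L6, 5 for ISG15 and HERC6, 6 for HERC5 and 7 for USP18.

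The timing differences were read from how the ATRA effect (ATRA over DMSO) changed between successive times. By 24 h UBA7 had covered 65.5% of its log2 change at 120 h and UBE2L6 46.8%. ISG15 had covered 20.3%, HERC6 16.9% and USP18 8.11%, and HERC5 stood at -17.3%, on the other side of its DMSO level. These are shares of a log2 ratio to DMSO and not of the RNA level. In ATRA cells UBE2L6 averaged 12.9 CPM at 24 h and 285.3 CPM at 120 h, and UBA7 49.99 and 246.7 CPM. From 4 to 12 h the effect changed for 5 members (14% of tested genes changed), most for UBE2L6 (1.82 ± 0.25, SE, log2) and UBA7 (1.54 ± 0.14), while that of HERC5 fell by 0.47. The changes of HERC5 and HERC6 (0.51 ± 0.17) were the weakest of the 5 and were lost in 6 and 18 of the alternatives, among them leaving out ATRA library 5 of 12 h, or ATRA library 4 or DMSO library 2 of 4 h, each of which left 3 members. From 12 to 24 h it grew for UBE2L6 (0.87 ± 0.25, adjusted p = 0.0245) and ISG15 (0.51 ± 0.14, adjusted p = 0.0223), where 6.9% of tested genes changed and 2.5% upward. Both of these calls were lost without ATRA library 5 or without DMSO library 4 of the 12 h groups. Among the 24 h libraries, the call of ISG15 was also lost without ATRA library 5 or DMSO library 2 or 5, and that of UBE2L6 without ATRA library 4 or DMSO library 4.

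The step from 24 to 72 h was the main one, and all 6 effects grew (45.9% of tested genes changed, 21.5% upward). USP18 gained 4.68 ± 0.22 log2 units, HERC5 4.36 ± 0.15, ISG15 4.07 ± 0.14 and HERC6 3.10 ± 0.17 (adjusted p = 6.73e-18 or below for each of the 4). UBE2L6 gained 1.5 ± 0.22 (adjusted p = 4.15e-07) and UBA7 0.45 ± 0.13 (adjusted p = 0.00414). From 72 to 120 h all 6 effects grew again (39.3% of tested genes changed, 17.5% upward), by 2.15 ± 0.18 for UBE2L6, 1.53 ± 0.17 for HERC6, 1.29 ± 0.20 for USP18, 0.97 ± 0.12 for UBA7, 0.63 ± 0.13 for ISG15 and 0.39 ± 0.14 for HERC5. The gain of HERC5 had an adjusted p of 0.0208 and was lost in lane 3 alone and without ATRA library 4 of 120 h, DMSO library 4 of 120 h, or DMSO library 2 or 5 of 72 h.

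The UBA7 and UBE2L6 steps depended on DMSO at 72 h, where both genes were raised. With the mean of DMSO at 24 and 120 h in its place, the 72 h log2 fold change became 4.65 for UBA7 and 6.84 for UBE2L6. The gain from 24 to 72 h became 1.97 and 3.62. The step from 72 to 120 h turned to -0.56 for UBA7 (adjusted p = 4.09e-06) and to 0.03 for UBE2L6 (adjusted p = 0.876). The other 4 members kept their direction and their call in both steps under this change.

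**Figure D2:**
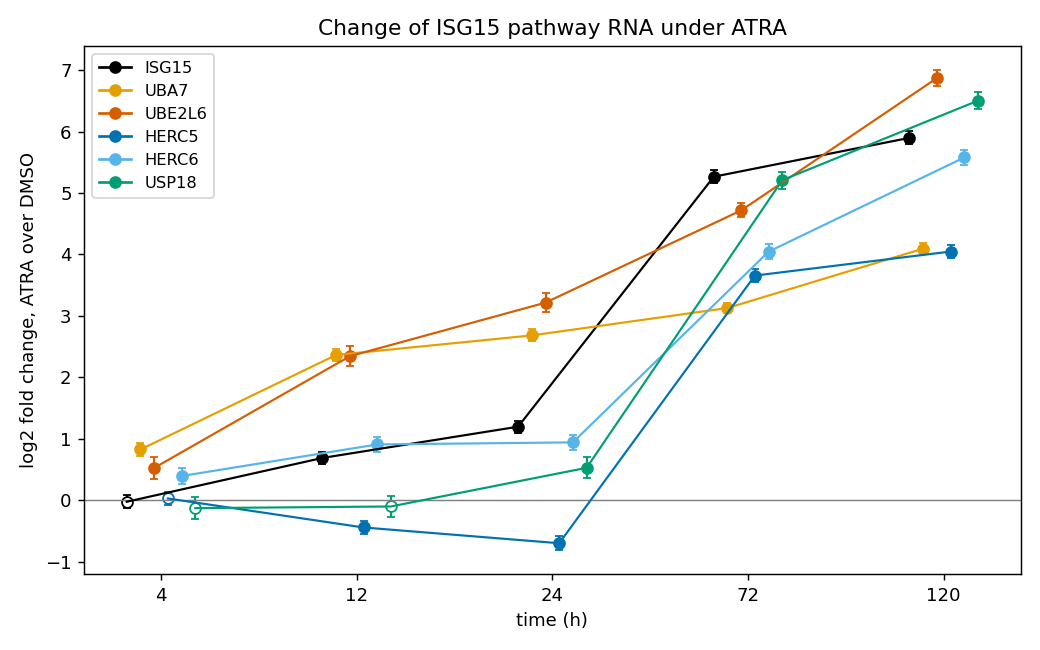
Log2 fold change, ATRA over DMSO, of the 6 members at 5 times (categories, not to scale), with bars of 1 standard error, filled points for adjusted p under 0.05 and open points otherwise. UBA7 and UBE2L6 lie above 2.3 from 12 h on, HERC5 dips to -0.70 at 24 h before reaching 3.66 at 72 h, and USP18 stays within 0.53 of 0 until 24 h.

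Members also moved in the solvent arm, where no ATRA was given. At 4 h DMSO cells had 1 member higher and 3 lower than untreated cells (31.4% of tested genes called), at 12 h 1 and 4 (22.7%) and at 24 h 0 and 3 (19.1%). HERC5 was lower at every time, with log2 changes of -0.54 to -0.90, and UBE2L6 at every time but 72 h, with -1.31 ± 0.19 (SE) at 24 h. At 72 h UBA7 was higher by 1.44 ± 0.09 and UBE2L6 by 1.22 ± 0.14 (adjusted p = 1.31e-15 and 3.59e-09), with HERC5 lower and the other 3 not called (51.6% called). In all 3 DMSO libraries of that time UBA7 lay between 29.1 and 31.5 CPM, above all other untreated and DMSO libraries. By 120 h UBA7 remained higher by 0.36 ± 0.10 and UBE2L6 and HERC5 were lower (21.9% called), with 1 member called when untreated library 4 was left out. The labels record that medium holding new drug went into the cultures on day 3, without saying whether the 72 h cells were taken before or after it. Libraries of 0, 4 and 12 h ran in lane 4 and those of 24 h and later in lanes 2 and 3, so time and lane cannot be told apart from 24 h on in comparisons with untreated cells. ATRA and DMSO of 1 time were spread over lanes alike.

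Other ubiquitin-like systems, taken as fixed lists, moved far less in either direction. Beside the counts of these lists, 33.2% of all tested genes were called at 24 h and 70.6% at 120 h. Of 9 other activating enzymes (E1), 1 was higher and 2 were lower at 24 h, and 3 were higher and 6 lower at 120 h, with a median log2 change of -0.07 and -0.42. UBA1, which activates ubiquitin itself, averaged 340.1 ± 0.816 CPM in ATRA cells and 342 ± 15.1 CPM in DMSO cells at 24 h (SD, n = 3 each; log2 -0.01, adjusted p = 0.961) and was lower at 120 h (-0.38 ± 0.07 SE, adjusted p = 6.24e-06). ATG7, the autophagy E1, was the highest of the list at 120 h with 1.16 ± 0.07, and NAE1 of the NEDD8 enzyme the lowest with -1.78 ± 0.08. Of 11 other conjugating enzymes (E2), 0 were higher and 2 lower at 24 h, and 3 were higher and 5 lower at 120 h (medians -0.02 and -0.04).

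UBE2L3, the closest relative of UBE2L6 on that list, averaged 93.6 ± 10.2 CPM in ATRA cells and 90.7 ± 5.44 CPM in DMSO cells at 120 h (SD, n = 3 each; log2 0.05, adjusted p = 0.567). UBE2D1, a ubiquitin E2, was the highest of the 11 with 1.93 ± 0.12 (SE). Of the 4 other HERC genes tested, 3 were higher at 24 h and 3 at 120 h, where HERC2 was lower. HERC3, another of the small HERC proteins, changed by 0.27 at 24 h and 0.97 at 120 h. Of 12 tested genes for other modifiers, 2 were higher and 1 lower at 24 h, and 3 were higher and 5 lower at 120 h.

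**Figure D3:**
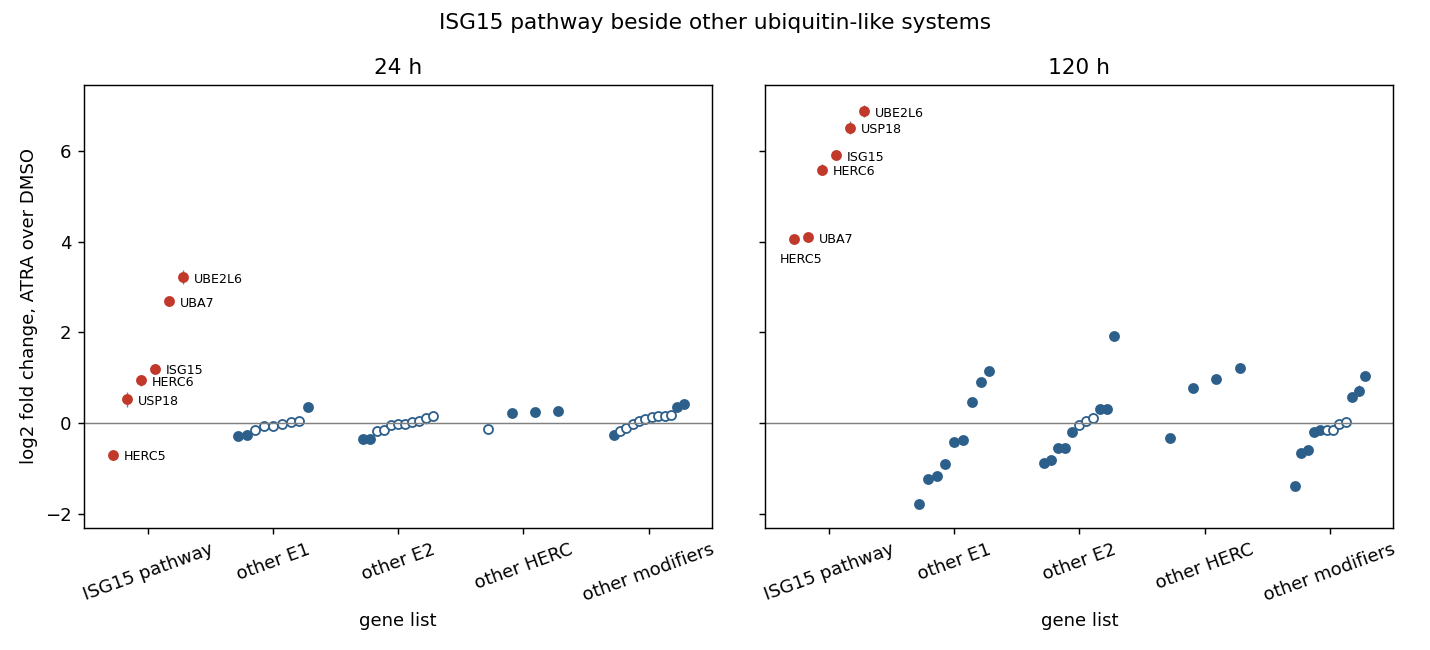
Log2 fold change, ATRA over DMSO, at 24 h and 120 h for the 6 members (red, named) and for other E1, E2, HERC and modifier genes (blue), with bars of 1 standard error, filled points for adjusted p under 0.05 and open points otherwise. At 120 h the members lie between 4.05 and 6.87 and the highest gene of the other lists is UBE2D1 at 1.93.

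Other proteins that join, remove, bind or read ISG15 showed mixed changes. Of 15 such genes, 6 were higher and 2 lower at 24 h, and 7 were higher and 5 lower at 120 h. Over all tested genes 33.2% and 70.6% were called at these times. The median log2 changes of the 15 were -0.0039 and 0.05. TRIM25, an E3 ligase that can also attach ISG15, averaged 126 ± 4.06 CPM in ATRA cells and 81.9 ± 1.55 CPM in DMSO cells at 24 h (SD, n = 3 each), and changed by -0.48 at 4 h, 0.62 at 24 h and 1.89 at 120 h (log2, all called). ARIH1, another reported ISG15 ligase, had 91.3 ± 3.74 CPM in ATRA cells and 93.3 ± 2.97 CPM in DMSO cells at 120 h (SD, n = 3 each). STAT2, which carries USP18 to the interferon receptor, rose by 0.44, 0.91, 0.73, 3.53 and 4.60 over the 5 times, and IFNAR2, the receptor chain that USP18 binds, by 1.60 at 120 h. SQSTM1, an autophagy adaptor, rose by 4.52. ITGB2, a chain of LFA-1, which has been described as a receptor for free ISG15, rose by 3.58 and ITGAL, its partner, by 1.5. Of the other ISG15-removing or cross-reacting proteases on the list, USP5, USP13, USP14 and USP21 were lower at 120 h, and USP2 and USP16 were not called.

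Proteins known to receive ISG15 also went both ways. Of 17 such genes, 6 were higher and 1 lower at 24 h (33.2% of all tested genes called). At 120 h 12 were higher and 5 lower (70.6% called), with a median of 0.78. The highest were themselves interferon-induced, IFIT1 with 7.08 ± 0.13, RIGI with 5.76 ± 0.09 and MX1 with 5.71 ± 0.16 (SE, log2 at 120 h). The IFIT1 model shares 47.6% of its exon bases with IFIT5 on the same strand, where a fragment counts for both. PCNA, the replication clamp, was the lowest with -1.30.

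The regulators upstream of interferon-stimulated genes give the setting in which the members rose. Of 19 tested genes for interferons, their receptors, kinases and transcription factors, 11 were higher and 2 lower at 24 h (33.2% of all tested genes called). All 19 were higher at 72 h (64.7% called, 32.1% higher). At 120 h 18 were higher and 1 lower (70.6% called). IRF1, a factor that can switch on interferon-stimulated genes without interferon, averaged 128 ± 1.04 CPM in ATRA cells and 26.8 ± 1.46 CPM in DMSO cells at 4 h (SD, n = 3 each; log2 2.26 ± 0.07 SE, adjusted p = 2.08e-26). IRF1 changed by 2.41, 2.69, 3.21 and 3.12 at 12, 24, 72 and 120 h, and averaged 244 ± 16.9 CPM in ATRA cells and 26.4 ± 1.94 CPM in DMSO cells at 72 h (SD, n = 3 each). IRF9 and STAT2 belong to the complex that binds the response element, and they rose mainly after 24 h. IRF9 changed by 0.91 at 24 h and 2.69 at 72 h, when it averaged 139.6 ± 7.16 CPM in ATRA cells and 21.7 ± 0.93 CPM in DMSO cells (SD, n = 3 each). Its model shares 86.9% of its exon bases with other genes on its strand, among them REC8 and RNF31. The IRF9 counts may therefore include fragments of those genes. IRF7, which drives interferon alpha genes, changed by 0.84 at 24 h and 4.44 at 72 h, and IRF8, a factor of monocytes and dendritic cells, by -2.24 at 24 h, 1.37 at 72 h and 3.93 at 120 h.

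The interferon genes themselves were near 0 until 24 h. IFNB1 had 2 to 4 counts summed over the 3 libraries of each group at 4 and 12 h, and 1 count in ATRA cells and 6 in DMSO cells at 24 h. It had 261 counts in ATRA cells and 2 in DMSO cells at 72 h, and 690 and 3 at 120 h. In single ATRA libraries of 72 h IFNB1 ran from 1.81 to 5.98 CPM, a wider relative spread than any member had in those libraries. IFNA1 had 130 counts in ATRA cells and 0 in DMSO cells at 72 h and 375 and 1 at 120 h, a value that is uncertain because interferon alpha genes have near-identical copies. IFNL1 had 61 counts in ATRA cells and 0 in DMSO cells at 72 h and 60 and 1 at 120 h. IFNG had 0 counts in all 33 libraries.

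The 8 antiviral genes on a separate list (IFIT, OAS, MX1, RSAD2 and IFI44L genes) also rose mainly after 24 h, with a median log2 change of 0.39, 0.67, 1.24, 7.23 and 7.47 over the 5 times. At 4 h 3 of them were higher, at 12 and 24 h 7, and at 72 and 120 h 8. Over all tested genes 24.7%, 38.7%, 33.2%, 64.7% and 70.6% were called at the 5 times. OAS1 changed by 2.29 ± 0.13 (SE) at 24 h, between UBA7 and ISG15 of that time.

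**Figure D4:**
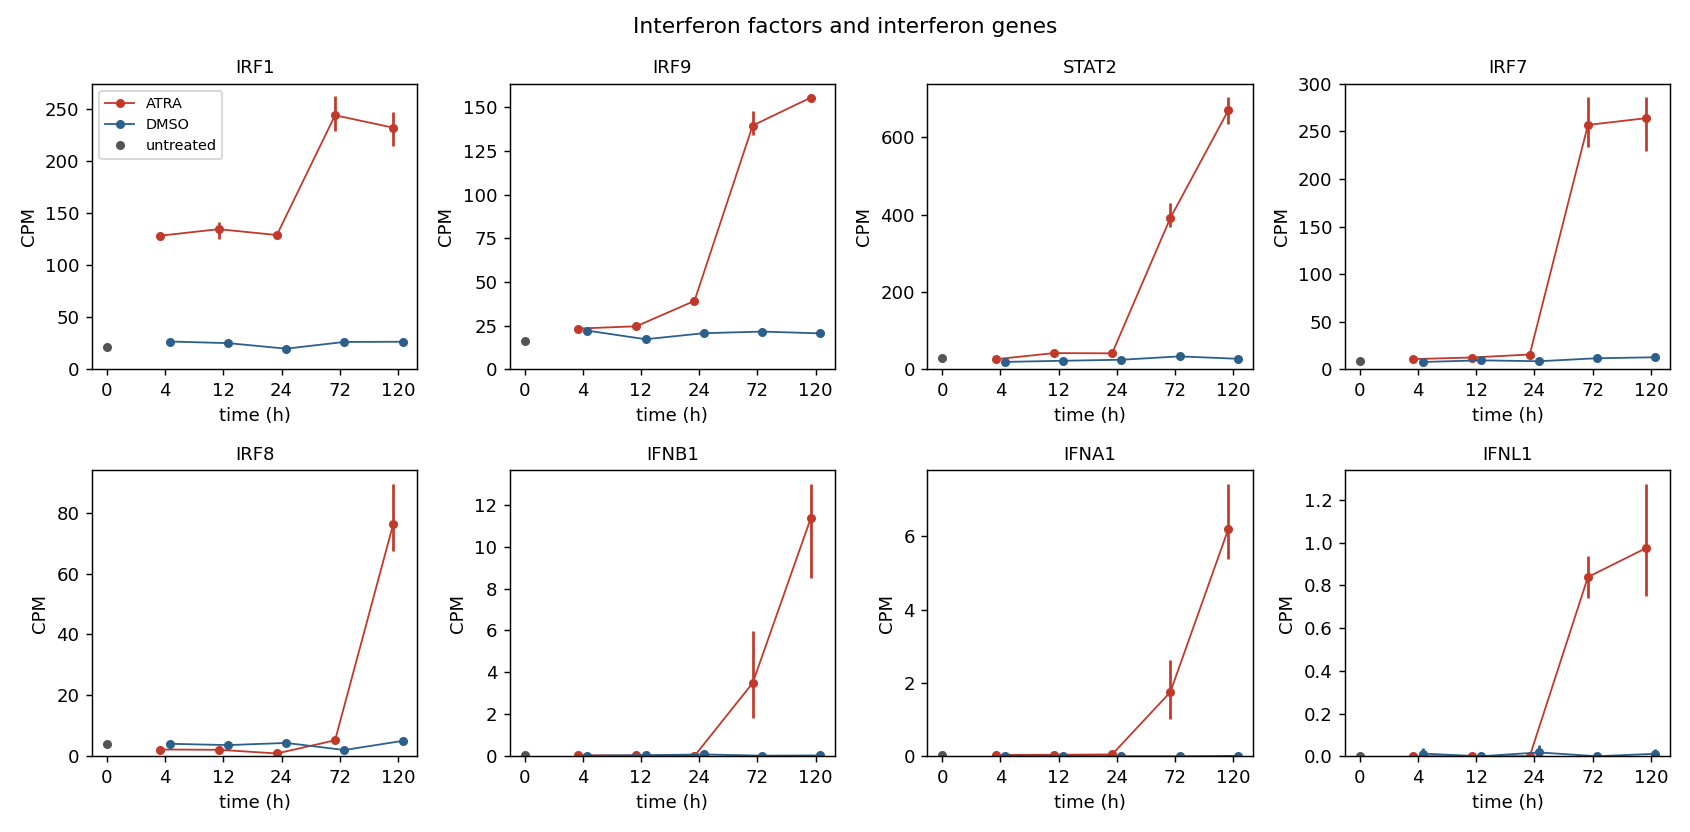
CPM against time (categories, not to scale) for 5 transcription factors and 3 interferon genes, with points for group means of 3 libraries, bars for the lowest and highest library, ATRA in red, DMSO in blue and untreated in grey. IRF1 is raised from 4 h on, whereas STAT2, IRF9, IRF7, IFNB1, IFNA1 and IFNL1 climb between 24 and 72 h. The IRF9 model shares 86.9% of its exon bases with other genes on its strand. IRF8 is at 0.91, 5.23 and 76.3 CPM in ATRA cells at 24, 72 and 120 h.

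The genes most like each member were taken as the 3 with the highest Pearson correlation of mean log2 CPM over the 11 groups, among 13417 tested protein-coding genes. Groups that share time, treatment and lane make these a description only. ISG15 was most like EPSTI1 (0.998), OTOF and XAF1, and USP18 most like IFI44L (0.997), IFI27 and IFIT1B. UBE2L6 was most like LGALS3BP (0.996), TAP1 and MAPKBP1. UBA7 was most like HLA-DMA (0.991), TMEM35B and MAPKBP1, so that UBA7 and UBE2L6 had MAPKBP1 in common. HERC5 was most like CDC42EP2 (0.991), CALHM6 and WASHC4, and HERC6 most like NADK (0.997), RPS6KC1 and ZC3HAV1. Between members, ISG15 and USP18 were the closest pair (0.993), UBA7 and UBE2L6 came next (0.985), and UBA7 and HERC5 were the farthest apart (0.779).

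Genes beside the members moved in both directions. INKA1, which overlaps UBA7 on the opposite strand, fell at every time while UBA7 rose, with log2 changes of -1.18 at 4 h and -3.02 at 120 h. TRAIP on the other side of UBA7 changed by -1.36 at 120 h, and TIMM10 beside UBE2L6 by -0.74. SERPING1 on the other side of UBE2L6 rose with it at low levels, to 1.2 ± 0.21 CPM in ATRA cells against 0.067 ± 0.085 CPM in DMSO cells at 72 h (SD, n = 3 each; log2 4.03, adjusted p = 3.25e-07), and was also called at 12 h (log2 3.30, adjusted p = 0.0111) and 120 h (4.39, adjusted p = 1.18e-07). AGRN beside ISG15 changed by -0.76 at 24 h, 1.10 at 72 h and 0.65 at 120 h, and PLEKHN1 on the other side of ISG15 was called at no time. The span of the USP18 model overlaps those of PEX26 and TMEM191B, but 0% of its exon bases are shared with other genes on either strand. PEX26 changed by -0.81 at 120 h, and TMEM191B was called at 12 h alone (1.6, adjusted p = 0.0466). PPM1K, on the far side of HERC6, rose by 1.93 and PYURF, on the far side of HERC5, fell by 0.38 at 120 h.

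Counts summed over all genes lay between 18341456 and 33490654 per library (median 25927472), with a fragment in several genes of a strand counted in each. Libraries of 1 group correlated at 0.9855 or above on the log scale. The fragments behind 1 CPM therefore differed between libraries. UBE2L6 at 24 h had 31 fragments at 1.00 CPM in DMSO library 4 and 30 fragments at 1.61 CPM in DMSO library 2. Promyelocyte markers (8 genes, summed CPM) ran from 1566 to 14710 CPM over all libraries, with 1566 to 2014 CPM in ATRA cells and 10910 to 13190 CPM in DMSO cells at 120 h. Single genes of this list went both ways, with 5 higher and 2 lower at 24 h (33.2% of all tested genes called). At 72 h 3 were higher and 4 lower (64.7%), and at 120 h 1 was higher and 6 lower (70.6%). Monocyte and macrophage markers (9 genes) summed to 162 to 193 CPM in ATRA cells against 7.03 to 7.82 CPM in DMSO cells at 72 h, and to 365.5 to 412.5 against 10.4 to 11.7 CPM at 120 h. All 6 tested genes of that list were higher at both times, with MRC1 and C1QB at 0 counts in the ATRA libraries of both. Their part in the late rise of the members was not tested. Markers of plasmacytoid dendritic cells, the main interferon makers of blood, summed to 11.4 to 12.98 CPM in ATRA cells against 4.33 to 7.35 CPM in DMSO cells at 72 h, with GZMB at 0 in all libraries. The mean sum was 11.29 CPM in ATRA cells and 3.99 CPM in DMSO cells at 4 h, and 2.41 and 3.92 CPM at 24 h. Of the 4 tested of these 6 genes, 3 were higher and 1, TCF4, lower at 72 h, when IL3RA alone averaged 9.27 CPM in ATRA cells. At 120 h 1, CLEC4C, was higher (log2 6.4). CLEC4C had only 205 counts over all libraries and averaged 0.65 CPM in ATRA cells and 0.013 CPM in DMSO cells at 72 h. Lymphoid markers (7 genes) summed to 37.6 to 40.2 CPM in ATRA cells against 24.95 to 27.4 CPM in DMSO cells at 72 h, with CD79A higher by 3.73 and MS4A1 at 0 in the ATRA libraries. At 72 h 2 of the 4 tested lymphoid genes were higher and 2 lower. Epithelial and fibroblast markers (8 genes) summed to 35.3 to 37.8 CPM in ATRA cells against 21.7 to 25.3 CPM in DMSO cells at 72 h, and to 14.2 to 15.97 against 21.1 to 23.3 CPM at 120 h. Erythroid markers summed to at most 0.329 CPM in any library. The part of these lists in the late rise was not tested.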

How the data were processed

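The 6 members and all gene lists were chosen with earlier results of these data known. Total RNA of NB4 cells was made into stranded total RNA libraries and sequenced as 150 bp paired ends, per the labels' protocols. The authors deposited raw counts, fragments summed over the exons of a gene by featureCounts 1.5.1 in reverse-stranded paired-end mode with merged Ensembl and FANTOM CAT gene models, per the file headers. A fragment overlapping several genes on a strand was counted in each, per the file headers. The submitters' processing notes also name Trimmomatic 0.36, STAR 2.5.2b and GRCh38. The labels mention 2 technical runs per replicate, and the deposited table holds 1 column per library. Group and replicate number came from the sample titles. Because 1 cell line was used, p-values measure the spread between its cultures.

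Counts were analysed here with edgeR (version 4.0.16, R 4.3.3). Low genes were removed by filterByExpr and libraries scaled by TMM (factors 0.827 to 1.108). The 11 groups each had a mean in 1 quasi-likelihood fit over the 33 libraries (biological coefficient of variation 0.077). P-values were adjusted by Benjamini-Hochberg over the 22971 tested genes of a comparison, at a threshold of 0.05. Standard errors of log2 fold changes are those implied by the F statistic. ATRA was set against DMSO at each time, DMSO against the untreated group, and the ATRA effect of each time against that of the time before. CPM values were computed on library sizes after TMM, with a prior count of 2 where logged. The 6 members were named throughout, with the 3 genes of smallest p and a few set examples from each list. Alternatives were DESeq2 1.42.0, limma-voom (limma 3.58.1), other size factors and filters, the compared groups alone, a replicate block, 1 lane, another DMSO baseline at 72 h, and leaving out each library. The test was checked on simulated counts.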

Additional observations from a re-analysis of the deposited data

Results flagged for a closer look

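The change of the ATRA effect (ATRA over DMSO, log2) between successive times passed the test for 19 of the 24 member and step pairs (edgeR's quasi-likelihood test, Benjamini-Hochberg adjustment), which drew attention to each of them. From 4 to 12 h the values were 0.71 for ISG15, 1.54 for UBA7, 1.82 for UBE2L6, -0.47 for HERC5 and 0.51 for HERC6. From 12 to 24 h they were 0.51 for ISG15 and 0.87 for UBE2L6. From 24 to 72 h they were 4.07 for ISG15, 0.45 for UBA7, 1.5 for UBE2L6, 4.36 for HERC5, 3.10 for HERC6 and 4.68 for USP18. From 72 to 120 h they were 0.63 for ISG15, 0.97 for UBA7, 2.15 for UBE2L6, 0.39 for HERC5, 1.53 for HERC6 and 1.29 for USP18. The share of tested genes with a called change was 14%, 6.9%, 45.9% and 39.3% at these steps. Between genes the steps were not compared by a test. Groups of 3 libraries are too small for a check of single outlying libraries.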

How the results depend on the processing

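Of 306 counts recomputed under alternatives, 291 kept within 1.5 times the main count and 15 did not. These counts add higher and lower calls, so they do not show a change of direction. Of 444 single fold changes of ATRA against DMSO, 433 kept their status as called or not called, and 11 lost the call. Among those called in either fit, 0 reversed direction. A change of sign between uncalled values was not counted as a reversal. The steps of the ATRA effect between times were not among the 444. With the other DMSO baseline at 72 h, the UBA7 step from 72 to 120 h reversed, from 0.97 to -0.56 (edgeR, adjusted p = 4.09e-06). Members called at 4 h fell to 1 in a fit of the compared groups alone, and ran from 1 to 3 with libraries left out. For the change from 4 to 12 h, limma-voom called 3 members, and leaving out libraries gave 3 to 5. For the change from 12 to 24 h, lane 3 alone gave 1 member and limma-voom 0, and leaving out libraries gave 0 to 2. DMSO at 120 h against untreated cells gave 1 to 3 members with libraries left out. The causes were not tested. Lost calls among the 444 fold changes were HERC6 and UBE2L6 at 4 h and USP18 at 24 h, which lay between 1.75 and 8.38 CPM. Leaving out some libraries outside the compared groups also ended the call of HERC6 from 4 to 12 h (adjusted p up to 0.0544). Whether the replicate numbers pair the samples was not settled, and no comparison had all 3 same-number correlations above 0.1. For ATRA and DMSO at 12 h they were 0.185, 0.187 and 0.037. Each was above the highest correlation with another number (-0.012, -0.022 and 0.013). The same held at 120 h and for DMSO at 4 h against untreated cells, but in no other comparison. A replicate block left the number of members called unchanged in every comparison, and at 120 h called 16353 genes, against 16207 without it. Genes at a few CPM rest on few fragments, which limits what the 4 h values of UBE2L6 and USP18 can show.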
